A study of Mus musculus with 96 samples.

Results

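The genes described here are 10 transcripts of the G2 and M phases of the cell cycle: the kinase gene Cdk1 and its cyclins Ccnb1 and Ccnb2, the mitotic kinase genes Plk1, Aurka and Aurkb, the Aurora B partner Birc5, the ubiquitin pathway genes Ube2c and Cdc20, and the topoisomerase gene Top2a. They were chosen by symbol, and all 10 were present among the 24321 gene symbols measured. RNA had been sequenced from 96 single cells of mouse marrow, captured on a microfluidic chip (Fluidigm C1) and each labelled as an erythroid precursor on the C57BL/6 background with the genotype Rpl11 +/lox, in which 1 of the alleles of a large-subunit ribosomal protein gene is floxed. The titles of all 96 cells call them heterozygous for Rpl11. The labels name no Cre driver, animal, age or wild-type cells, so whether heterozygous means a floxed or a recombined allele is not given, and the cells count as n = 1 sample. Comparisons are between ranges of cells within that sample, no test was made, and every SD is over cells.

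Entry into mitosis is driven by CDK1 bound to cyclin B, and Polo-like kinase 1 and the Aurora kinases build the spindle and correct its attachments. The anaphase-promoting complex (APC/C), a ubiquitin ligase, then ends mitosis: CDC20 activates it, UBE2C is the ubiquitin-conjugating enzyme that starts chains on its substrates, and cyclin B is among those substrates. Red cell precursors divide several times while they fill with hemoglobin, and their last divisions take place when globin transcripts are already abundant. Hba-a1, an adult alpha-globin gene, was therefore the scale along which the cells were ordered.

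Transcription of many G2 and M genes is tied to a promoter element called the cell cycle genes homology region (CHR, searched as TTTGAA) and to CCAAT boxes (searched as CCAAT), both read on either strand. RefSeq promoters of GRCm38.p6, each with 250 bases before and 50 after the start, matched 9 of the 10 genes, all but Aurkb. TTTGAA was found in 7 of these 9 windows, against 17.9% of 32851 promoter windows of the same length. CCAAT was found in 8 of 9, against 37.4% of all windows, and both together in 7 of 9, against 6.95%. Counting TTCGAA as well left the number of genes at 7, against 19.2% of windows. The stretches below are shown because these genes differ in their course along Hba-a1, and Ccnb1 and Birc5 among them lack TTTGAA. Each runs 5′ to 3′ on the gene's strand over the 110 bases before the start, and capitals mark the matches to both motifs, a match on the opposite strand being shown as its reverse complement.
Ube2c, chr2:164769819-164769928 (+): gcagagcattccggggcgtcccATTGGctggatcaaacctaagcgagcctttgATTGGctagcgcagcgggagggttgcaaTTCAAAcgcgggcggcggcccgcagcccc
Cdc20, chr4:118437344-118437453 (-): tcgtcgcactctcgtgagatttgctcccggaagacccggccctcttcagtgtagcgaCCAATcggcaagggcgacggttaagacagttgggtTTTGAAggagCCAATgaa
Cdk1, chr10:69352913-69353022 (-): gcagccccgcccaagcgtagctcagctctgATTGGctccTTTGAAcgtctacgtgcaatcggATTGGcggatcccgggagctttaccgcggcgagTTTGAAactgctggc
Ccnb2, chr9:70421555-70421664 (-): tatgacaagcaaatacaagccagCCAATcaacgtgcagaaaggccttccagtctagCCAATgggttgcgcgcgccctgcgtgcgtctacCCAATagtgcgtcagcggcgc
Ccnb1, chr13:100786487-100786596 (-): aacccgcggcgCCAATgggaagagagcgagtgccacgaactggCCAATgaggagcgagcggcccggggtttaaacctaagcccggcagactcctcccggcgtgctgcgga
Birc5, chr11:117849127-117849236 (+): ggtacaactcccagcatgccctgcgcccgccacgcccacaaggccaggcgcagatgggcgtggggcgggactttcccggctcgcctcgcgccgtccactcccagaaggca

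In Plk1 and Aurka the match to TTTGAA lay just past the start of the window's transcript instead, at bases 31 and 33, and 20 bases around each are given for that reason. For Aurka that start lies 316 bases inside the annotated outer end of the gene, so its window belongs to another transcript start, as does that of Top2a (10 bases inside), while the other 7 windows begin at the outer end.
Plk1, chr7:122159460-122159479 (+): ccgcgTTTGAAttcggggag
Aurka, chr2:172370524-172370543 (-): gaaccTTTGAAttgtaacgg
The Ube2c promoter, whose gene had the steepest course along Hba-a1, held 1 match to TTTGAA, which began 29 bases before the start on the opposite strand, and 6 matches to CCAAT, of which those at 186 and 183 bases before the start overlap on opposite strands. Birc5, detected in as many cells as Ube2c, had no match to either motif in its window, and Ccnb1 had CCAAT but not TTTGAA, whereas both TTTGAA matches of Ccnb2, at 167 bases before and at base 5 past the start, lie outside the stretch shown. In 5 of the 9 windows (Ube2c, Aurka, Ccnb2, Cdk1 and Ccnb1) a pair of CCAAT matches began 31 to 33 bases apart, as did 0.971% of all windows and 8.30% of the 3842 windows with at least 2 matches, a distance chosen after the matches were seen. These matches describe letters in a window and not binding.

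Of the 96 cells, 57 were kept: 27 had fewer than 1000 genes at 1 RPKM (reads scaled to transcript length and to the mapped reads of the cell) or more, and 12 met a marker list of another blood or stromal lineage. The kept cells were ranked by Hba-a1 and cut into 3 bins of 19 cells, with Hba-a1 at 210 to 244308 RPKM in the low bin, 270948 to 439292 RPKM in the middle bin and 439819 to 570277 RPKM in the high bin. Estimated depth had medians of 5782, 7140 and 7918 from the low to the high bin in units of 1000 reads, whereas the number of genes at 1 RPKM or more fell in the other direction, with medians of 3503, 1928 and 1239. The erythroid label matched the late progenitor markers in most kept cells. At 10 RPKM or more these had medians of 9, 8 and 6 of 10 in the low, middle and high bin, against 2 in the cells set aside. Erythroblast markers had medians of 12, 14 and 13 of 18 in the same order, against 7 in the cells set aside. That list holds Hba-a1, by which the cells were ranked, and other globin genes, so it gives no separate support. Of the 8 other lineage lists, the neutrophil list was met by at least 3 markers in 1 low-bin cell and the monocyte list in 1 low-bin cell, and no list reached 3 markers in any cell of the middle or high bin. However, 3 cells of the low bin had only 2 late progenitor markers, and they listed transcripts of earlier or myeloid cells: cell 11 had Mpo at 7333 RPKM and Plac8 at 4134 RPKM, cell 60 had Ly6c2 at 5943 RPKM and Plac8 at 3884 RPKM, and cell 68 had Plac8 at 3843 RPKM. Because these 3 cells had 3, 2 and 1 of the 10 mitotic transcripts, differences between bins, list counts, co-detection and most correlations are given with and without them, and they are called the few-marker cells. The descriptions of the cells carry 3 codes, SCP-1706080 in 52 cells, SCP-170608 in 25 and SCP-1706013 in 19, whereas every title and every column of the deposited table carries SCP-1706080. What the codes mark is not stated, and the conflict was not resolved. The codes of the descriptions were mixed over the bins, with 4 to 11 cells of each in each bin, and are called description codes. A gene was counted as higher or lower in the high bin where its mean log2(RPKM + 1) differed from that of the low bin by at least 1, in 1 direction in every description code. Of the 4403 genes detected in at least 10 kept cells, 1.32% were higher and 69.3% lower by this size rule. By size alone, with no use of the codes, 1.7% were higher and 75.3% lower. Rpl11 itself was detected in 40 of the 57 cells (70.2%), with a median of 71.6 RPKM.

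Detection, at 1 RPKM or more, split the 10 genes widely. Ube2c and Birc5 were each detected in 54 of 57 kept cells (94.7%, exact Clopper-Pearson 95% interval 85.4% to 98.9%), Ccnb2 in 52 (91.2%, 80.7% to 97.1%), Top2a in 50 (87.7%, 76.3% to 94.9%), Cdk1 in 47 (82.5%, 70.1% to 91.3%) and Ccnb1 in 46 (80.7%, 68.1% to 90.0%). The other 4 were found less widely, with Aurka in 38 cells (66.7%, 52.9% to 78.6%), Aurkb in 33 (57.9%, 44.1% to 70.9%), Cdc20 in 31 (54.4%, 40.7% to 67.6%) and Plk1 in 18 (31.6%, 19.9% to 45.2%). Values were close to all or none: of 570 values, 125 (21.9%) were listed at 0 and 405 (71.1%) were at 10 RPKM or more, while 18 (3.16%) lay between 1 and 10 RPKM. The value that 3 reads would give in Plk1 ran from 0.117 to 0.891 RPKM over the kept cells and in Ube2c from 0.266 to 2.03 RPKM, so a cell listed at 0 had fewer reads than that and may still have held the transcript. By median RPKM, which is per transcript length, the order of levels was Birc5 (843), Ube2c (706), Ccnb2 (285), Ccnb1 (152), Cdk1 (98.5), Aurka (64.7), Aurkb (40.1), Top2a (23.2), Cdc20 (5.27) and Plk1 (0). On the log2(RPKM + 1) scale the means ran from 9.07 ± 2.28 for Birc5 to 1.93 ± 2.92 for Plk1 (SD over 57 cells), and no gap between neighbours in the order of means exceeded the SD of either.

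**Figure D1:**
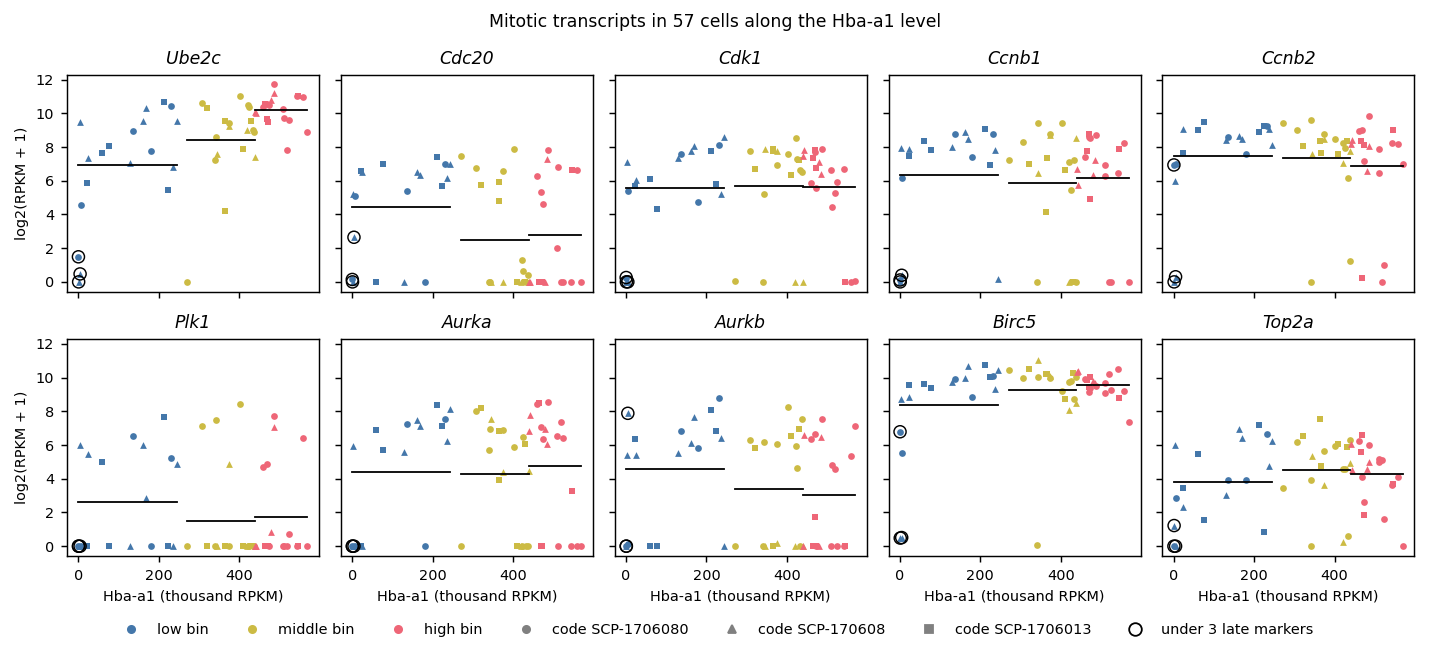
Level of each of the 10 genes, as log2(RPKM + 1), in the 57 kept cells against Hba-a1 in units of 1000 RPKM, with 1 point per cell coloured by bin and shaped by description code, black lines at the mean of each bin, and rings around the 3 few-marker cells. Ube2c climbs to a tight band in the high bin, where all 19 cells lie between 226 and 3374 RPKM, while Cdc20, Plk1 and Aurkb are split between cells near 0 and cells well above it in every bin.

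Ube2c, the ubiquitin-conjugating enzyme of the APC/C, was the gene of this set that was highest where Hba-a1 was highest. Its lowest, median and highest values were 0, 198 and 1640 RPKM in the low bin, 0, 525 and 2131 RPKM in the middle bin, and 226, 1320 and 3374 RPKM in the high bin. It was detected in 17, 18 and 19 of 19 cells in that order, and although the ranges of the high and low bins overlap, the lowest high-bin cell was above the low-bin median, though below it once the few-marker cells were left out (226 against 241 RPKM). The mean log2 level was 10.23 ± 0.91 in the high bin and 6.92 ± 3.27 in the low bin (SD, 19 cells each), a difference of 3.31 that ranked 14 among the 4403 genes. By description code it was 2.63 in SCP-1706013, 3.80 in SCP-170608 and 3.50 in SCP-1706080. It was 2.45 without the few-marker cells, with a median of 1396 RPKM in the high bin and 241 RPKM in the low bin, and it was 4.73 after globin genes were removed and each cell rescaled to 1 total. With both changes it was 3.81. The Spearman correlation of Ube2c with Hba-a1 was 0.60 over the 57 cells and 0.53 without the few-marker cells, a description of values that share libraries and the RPKM scale.

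Cdc20, the APC/C activator that works with the product of Ube2c, was listed by fewer cells of the middle and high bins than of the low bin. Its lowest, median and highest values were 0, 51.1 and 168 RPKM in the low bin, 0, 0.313 and 235 RPKM in the middle bin and 0, 0 and 227 RPKM in the high bin. It was detected in 14, 8 and 9 of 19 cells from low to high (73.7%, 42.1% and 47.4%), so the bins differed in how many cells listed it more than in the level of those cells, whose medians were 84.4, 76.8 and 97.0 RPKM. The mean log2 level was 2.81 ± 3.26 in the high bin and 4.46 ± 2.91 in the low bin (SD, 19 cells each). That difference of -1.64 was not shared by all description codes, being -3.68 in SCP-1706013, -2.66 in SCP-170608 and 0.06 in SCP-1706080. When the few-marker cells were left out it was -2.37 and went the same way in each description code, with Cdc20 detected in 9 of 18 high-bin and 15 of 18 low-bin cells. It was -1.20 with globin genes removed. The difference depended on the filter on genes per cell, at -0.10 among the 27 cells with at least 2000 genes and 0.35 with no gene minimum.

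Cdk1, the kinase of mitotic entry, had a nearly level course. Its lowest, median and highest values were 0, 66.2 and 392 RPKM in the low bin, 0, 121 and 376 RPKM in the middle bin and 0, 97.0 and 232 RPKM in the high bin, and 16, 15 and 16 of 19 cells listed it. Ranges of the bins overlap almost wholly, and the mean difference between the high and low bin was 0.04 on the log2 scale. It depended on the setting, at 1.04 with globin genes removed, -0.79 without the few-marker cells and 0.08 with both.

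Ccnb1 and Ccnb2 encode the B-type cyclins that activate this kinase. Ccnb1 had lowest, median and highest values of 0, 227 and 534 RPKM in the low bin, 0, 136 and 682 RPKM in the middle bin and 0, 123 and 431 RPKM in the high bin. Ccnb2 had 0, 358 and 705 RPKM in the low bin, 0, 267 and 765 RPKM in the middle bin and 0, 278 and 934 RPKM in the high bin. Medians of both cyclins were thus highest where Hba-a1 was lowest, within ranges that overlap. Mean differences between the high and low bin were -0.21 for Ccnb1 and -0.58 for Ccnb2, and their sign depended on the setting. They were -1.43 and -1.69 without the few-marker cells, where both were counted as lower. With globin genes removed they were 0.93 and 0.61, and with both changes -0.47 and -0.65, and none of these passed the size rule. Ccnb2 was counted as higher among cells with at least 2000 genes (1.38), with no cell set aside (1.69) and with no gene minimum (2.65), where Ccnb1 was at 0.11, 1.39 and 1.52 without being counted. Pseudogene copies of both cyclins are annotated in mouse, and how reads were shared with them is not given in the sources used here.

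Plk1, Aurka and Aurkb encode mitotic kinases. Plk1, which acts at centrosomes and kinetochores, had a median of 0 RPKM in every bin, with highest values of 205, 350 and 209 RPKM from low to high, and was detected in 9, 4 and 5 of 19 cells. Aurka, the Aurora kinase of the centrosome and spindle poles, had medians of 59.9, 51.7 and 85.5 RPKM and was detected in 12, 13 and 13 cells, with values from 0 to 334, 298 and 378 RPKM. Aurkb, the kinase of the chromosomal passenger complex, had medians of 56.7, 24.1 and 2.31 RPKM, highest values of 434, 301 and 188 RPKM, and detection in 13, 10 and 10 cells. All 3 kinases had cells at 0 and cells above 100 RPKM in each bin, so the bins overlap throughout.

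Aurkb and Plk1 differed in the same direction in every description code, and Aurkb alone of the 3 kinases reached the size counted as lower. The mean difference between the high and low bin was -1.59 for Aurkb on the log2 scale, and -3.84, -1.69 and -0.46 in SCP-1706013, SCP-170608 and SCP-1706080. It was -0.91 for Plk1, at -2.53, -0.82 and -0.13 in the same order, and 0.36 for Aurka. Leaving out the few-marker cells gave -1.60 for Aurkb, -1.36 for Plk1 and -0.45 for Aurka, and Plk1 was then counted as lower as well. With globin genes removed Aurkb was at -1.06 without a common direction, and with both changes Aurkb was at -1.05 and Plk1 at -1.05, each lower in every description code. Aurka differed between codes, at -2.69, 2.42 and 1.66 in that order. Among cells with at least 2000 genes Aurkb was at -0.02 and Plk1 at 0.87, and with no gene minimum they were at 0.23 and 0.13.

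Birc5 encodes survivin, the passenger complex subunit that brings Aurora B to centromeres, and by median over all kept cells it was the most abundant of the 10 transcripts. Its lowest, median and highest values were 0.395, 764 and 1745 RPKM in the low bin, 0.0334, 1004 and 2094 RPKM in the middle bin and 161, 822 and 1453 RPKM in the high bin. The middle bin had the highest median, and the high bin had the narrowest range, with no cell below 161 RPKM. Its mean difference between the high and low bin was 1.17, with -0.36 in SCP-1706013 against 2.43 in SCP-170608 and 1.15 in SCP-1706080. It was -0.04 without the few-marker cells and 2.56 with globin genes removed. In 54 of 57 cells the value came from the shorter of its measured transcripts, of 947 bases.

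Top2a, which untangles sister chromatids, was widely detected at lower levels per length, with 16, 16 and 18 of 19 cells from low to high. Lowest, median and highest values were 0, 14.0 and 144 RPKM in the low bin, 0, 29.7 and 183 RPKM in the middle bin and 0, 23.1 and 96.7 RPKM in the high bin. The mean difference between the high and low bin was 0.46 and positive in each description code, but under the size of 1 required here. Leaving out the few-marker cells gave -0.32 and removing globin genes gave 1.74.

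**Figure D2:**
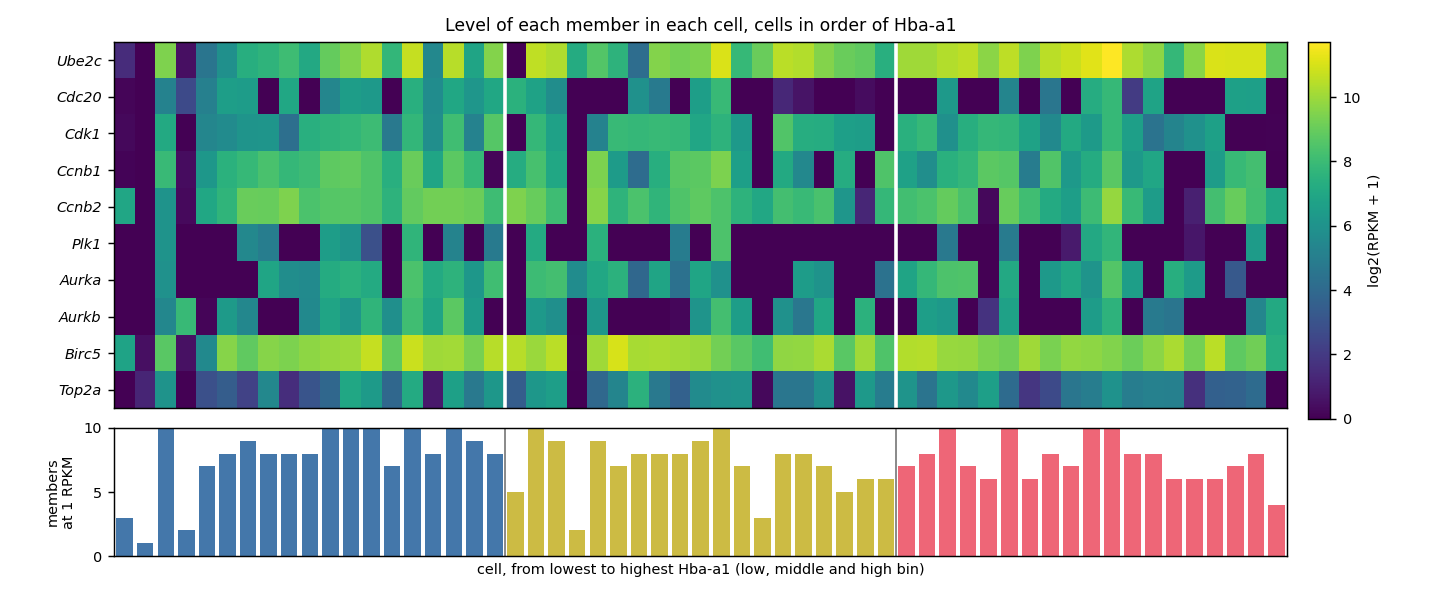
Above, the log2(RPKM + 1) level of the 10 genes (rows) in the 57 kept cells (columns, ordered by Hba-a1 from left to right, white lines between bins). Below, the number of the 10 genes at 1 RPKM or more in the same cells, which has a median of 8 in the low and middle bins and 7 in the high bin, with the dark columns at the far left belonging to few-marker cells.

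Most genes were lower in the high bin, and the 10 genes are read against that background. Over the 4403 genes 1.32% were higher and 69.3% lower, with a median difference of -2.12, and the number of genes listed per cell was lower in the high bin as well. That median rests on the minimum of 10 kept cells, and it was -0.57 over all genes above 0 in any kept cell. Among the 10 genes Ube2c was higher and Aurkb lower (1 of 10 each way), with a median of -0.08. By size alone Birc5 was higher too, and Cdc20 lower too. Without the few-marker cells 0.989% of 4144 genes were higher and 71.6% lower (median -2.21), and of the 10 genes Ube2c was higher and Cdc20, Ccnb1, Ccnb2, Plk1 and Aurkb were lower (median -1.08). With globin genes removed and cells rescaled, 4.21% of 4391 genes were higher and 64.3% lower (median -2.17), and Ube2c, Cdk1, Birc5 and Top2a were higher and 0 lower (median 0.98). With both changes 2.81% of 4132 genes were higher and 65.4% lower (median -2.27), and Ube2c and Birc5 were higher and Cdc20, Plk1 and Aurkb lower (median -0.20). Ube2c was thus higher in all 4 settings, while Cdc20, Plk1 and Aurkb were below 0 in all 4 and were not always counted as lower.

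Detection gave a like ordering without the log scale. For 7 of the 10 genes at least as many high-bin as low-bin cells listed the transcript, against 10.7% of the 4403 genes, and the exceptions were Cdc20, Plk1 and Aurkb. Without the few-marker cells that number was 3 of 10 (Ube2c, Birc5 and Top2a), against 8.54% of 4144 genes. The Spearman correlation with Hba-a1 was above 0 for Ube2c, Aurka, Birc5 and Top2a, against 7.45% of all genes, and beyond Ube2c those values were 0.02 to 0.06. Without the few-marker cells only that of Ube2c was taken (0.53), so this count was not repeated there. The differences of Aurka, Birc5 and Top2a between the high and the low bin were then -0.45, -0.04 and -0.32.

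**Figure D3:**
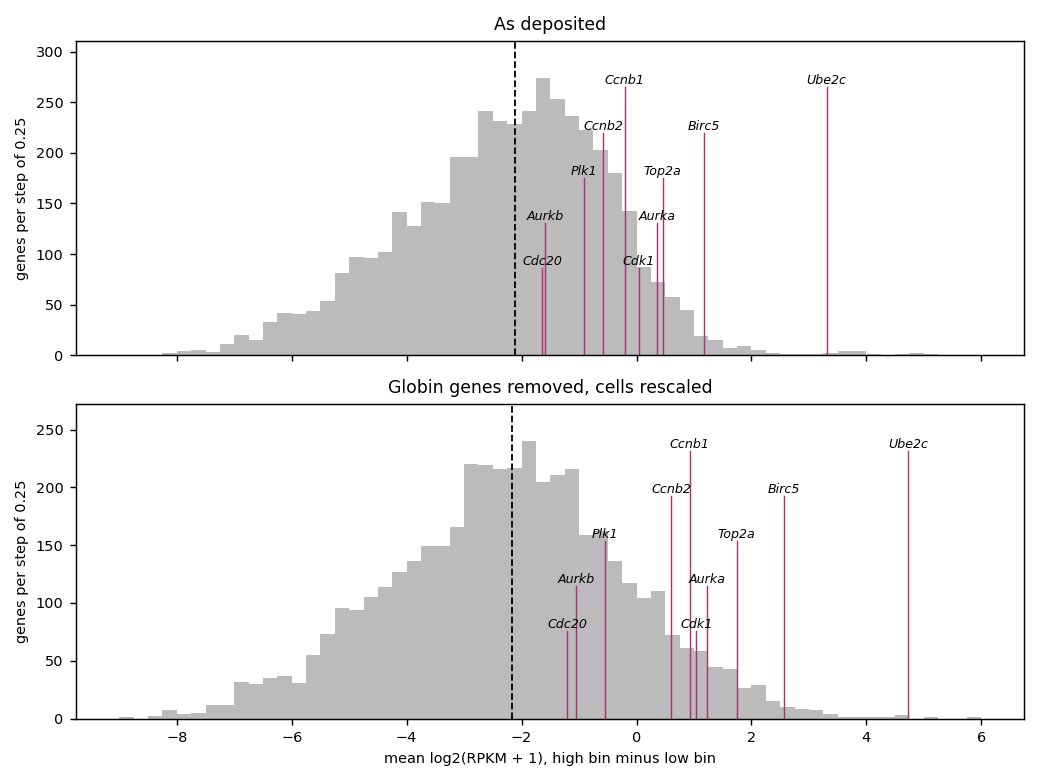
Number of genes (vertical axis, steps of 0.25) by mean difference in log2(RPKM + 1) between the high and the low bin, for values as deposited (upper panel, 4403 genes) and with globin genes removed and cells rescaled (lower panel, 4391 genes). Dashed lines mark the medians of all genes, -2.12 and -2.17, and purple lines the 10 genes, all of which lie to the right of those medians, with Ube2c farthest at 3.31 and 4.73.

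Most kept cells listed most of the 10 transcripts. A kept cell listed a median of 8 of the 10 genes (range 1 to 10), 33 cells listed at least 8 (57.9%, 44.1% to 70.9%), 12 listed all 10 and no kept cell listed none. By bin, at least 8 were listed in 14, 10 and 9 of 19 cells from low to high (73.7%, 52.6% and 47.4%, with intervals of 48.8% to 90.9%, 28.9% to 75.6% and 24.4% to 71.1%), and all 10 in 6, 2 and 4 cells. The 3 few-marker cells were among the lowest, and without them at least 8 genes were listed in 61.1% of 54 cells, and in 83.3%, 50.0% and 50.0% of 18 cells from the low to the high bin. Because genes per cell fall along Hba-a1 as well, a lower count of listed genes in the high bin was not separated from that fall. The share of cells with at least 8 genes, high minus low bin, was -26.3 percentage points, and below 0 in 12 of 15 alternatives. It was -61.8 with code SCP-1706080 left out, but 4.29 with code SCP-1706013 left out. With no gene minimum it was 4.89, and among the 27 cells with at least 2000 genes it was 0.

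Co-detection was ordered by how often each gene was listed. Of cells with either gene of a pair, between 33.3% and 96.4% listed both over the 45 pairs, with a median of 60.0%, against a median of 29.6% over all pairs of the 4403 genes. Without the few-marker cells these were 34.0% to 96.3%, 61.2% and 31.2%. Genes listed in many cells overlap for that reason alone, so these shares describe detection and not a link between genes. Ube2c and Birc5 were listed together in 53 cells and apart in 1 cell each way, and all 52 cells with Ccnb2 listed Birc5. The 18 cells with Plk1, the least often listed gene, all listed Ube2c, Ccnb2, Birc5 and Top2a, 17 listed Cdk1 and Ccnb1, 16 listed Aurka, and 15 listed Cdc20 and 15 Aurkb. Where shares of detection alone are multiplied, 12.0 cells would list both Plk1 and Aurka, 9.79 Plk1 and Cdc20, and 10.4 Plk1 and Aurkb. For the other Plk1 pairs the products were 17.1 with Ube2c and with Birc5, 16.4 with Ccnb2, 15.8 with Top2a, 14.8 with Cdk1 and 14.5 with Ccnb1. Cells differ in how many genes they list, and products were not compared over all gene pairs, so an excess over them was not tested. Cdk1 was never listed without Ube2c or Birc5. Both Aurora kinases were listed in 22 cells, Aurka alone in 16 and Aurkb alone in 11, and the product of their shares of detection gives the same 22.0 cells. Leaving out the few-marker cells kept 18, 16, 15 and 22 cells with Plk1, Plk1 and Aurka, Plk1 and Aurkb, and both Aurora kinases. Cdc20 and Ube2c, which act on the same ligase, were both listed in 29 cells (product of shares 29.4), while Ube2c was listed without Cdc20 in 25 cells, of which 4, 11 and 10 lay in the low, middle and high bin.

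**Figure D4:**
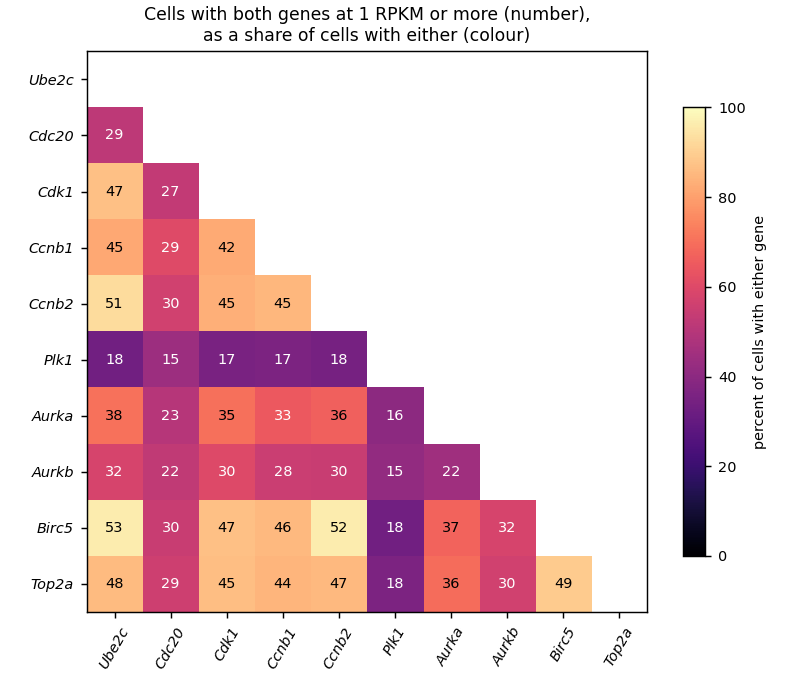
Number of the 57 kept cells that listed both genes of a pair at 1 RPKM or more (figures in the squares), with the colour giving that number as a percentage of cells with either gene. Ube2c, Ccnb2 and Birc5 form the lightest squares, with 51 to 53 cells, and the row and column of Plk1 are darkest, with 15 to 18 cells.

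Levels were compared by rank over the 57 cells, zeros included. The Spearman correlation was above 0 for all 45 pairs of the 10 genes, against 81.6% of all pairs of the 4403 genes. Its median was 0.34, with a range of 0.11 to 0.61, against a median of 0.20 over all pairs. In the 54 cells left without the few-marker cells it was above 0 for 44 of 45 pairs, all but Ccnb1 with Birc5 (-0.01), against 82.7%, with a median of 0.32 against 0.21. The closest pairs were Cdk1 with Top2a (0.61), Cdk1 with Birc5 (0.61), Ccnb1 with Ccnb2 (0.60) and Ccnb1 with Plk1 (0.58), while Plk1 with Birc5 (0.11) and Ccnb1 with Birc5 (0.11) were loosest. Cells share depth and number of genes listed, so these values describe the libraries and carry no p. The cell of highest Ube2c level, cell 18 of the high bin at 3374 RPKM, listed all 10 genes and also had the highest Ccnb2 (934 RPKM) and Aurka (378 RPKM) of the kept cells.

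The balance between Ube2c and the other genes within a cell was examined after the values had been seen, since a ratio within a cell does not depend on the scaling of that cell. Over cells with both genes at 1 RPKM or more, the median log2 ratio of Ube2c to Ccnb1 was 0.14, 1.45 and 3.08 from the low to the high bin (15, 14 and 16 cells). To Ccnb2 it was -1.34, 1.62 and 2.17 (17 cells each), with -0.58 in the low bin without its few-marker cell. Ube2c exceeded Ccnb1 in 16 of 16 high-bin cells and in 8 of 15 low-bin cells, and exceeded Ccnb2 in 17 of 17 high-bin cells and in 8 of 17 low-bin cells. To Cdk1 the ratio was 1.60, 2.37 and 3.66, to Cdc20 it was 2.59, 3.87 and 4.40, to Aurkb 1.92, 3.09 and 4.10, and to Aurka 1.87, 2.60 and 3.22. Birc5, the more abundant gene in the low bin, gave -1.11, -0.66 and 0.70, with Ube2c above it in 15 of 19 high-bin and 2 of 17 low-bin cells. To Top2a the ratio was 3.51, 3.80 and 6.01, and to Plk1, in 9, 4 and 5 cells, 3.46, 3.05 and 4.59. For all 9 genes the median was higher in the high than in the low bin, with ranges that overlap. These 9 ratios share the Ube2c values of the same cells, so they are not 9 separate results. Ube2c already had the largest mean log2 difference between these bins (3.31, then Birc5 at 1.17). Higher ratios largely restate that difference without the scaling of a cell. Cells with either gene under 1 RPKM do not enter a ratio.

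**Figure D5:**
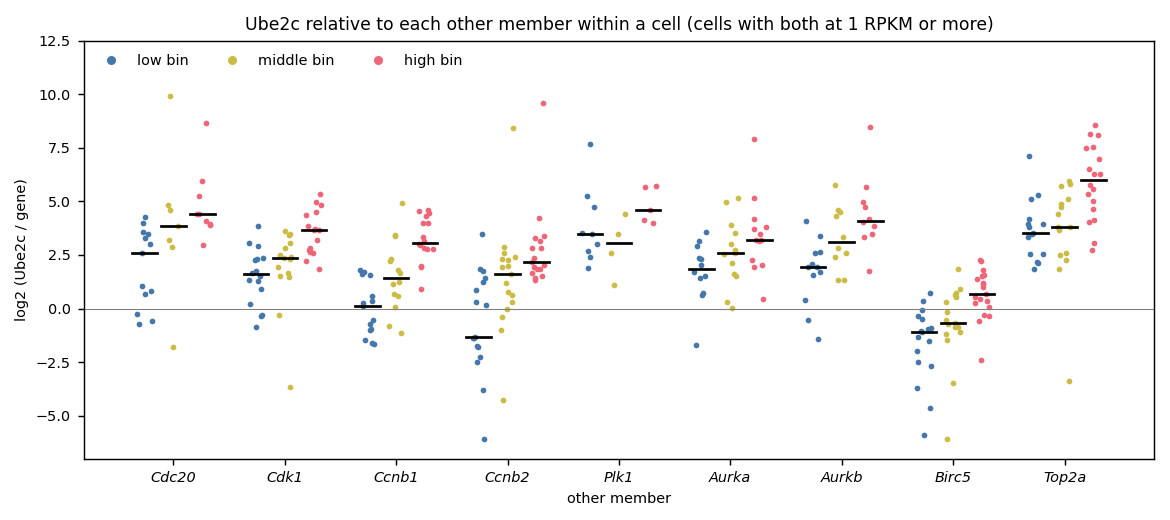
Log2 ratio of Ube2c to each of the other 9 genes within a cell, for cells with both at 1 RPKM or more, by bin of Hba-a1 (colours, low to high from left to right) with bars at the medians. High-bin medians are the highest for each gene, and for Ccnb1 and Ccnb2 every high-bin cell is above 0, the line of equal RPKM.

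Other G2 and M genes gave the setting of these 10. Of 101 measured genes of the list, 87 were detected in at least 10 kept cells. In the high bin 4 of these were higher and 21 lower (24.1% lower), against 1.32% higher and 69.3% lower of all genes. Their median was -0.48 against -2.12 over all genes. That contrast depended on the minimum of 10 kept cells. Over genes above 0 in any kept cell the medians were -0.48 for the list and -0.57 for all genes. When the few-marker cells were left out 2 genes of the list were higher and 32 lower (median -0.85), against 0.989% and 71.6% of all genes. With globin genes removed 16 were higher and 17 lower (median 0.28), against 4.21% and 64.3% of all genes. The sign of the list's median thus depended on the scaling. Of 33 S phase genes 0 were higher and 30 lower (90.9%, against 69.3% of all genes), with a median of -4.48, further below 0 than that of all genes. Among the 27 cells with at least 2000 genes this order was turned, with -1.14 for S phase genes and -1.54 for all genes. Mcm6 (-7.20) and Mcm7 (-6.03), subunits of the replicative helicase, and Rfc2 (-6.38) and Rfc4 (-6.37), subunits of the clamp loader, had the largest differences there, and the S phase median was -4.98 without the few-marker cells and -4.53 without globin genes.

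The group of genes for the APC/C, which Ube2c serves, and for factors that act with it stood near all genes tested. This group holds genes other than subunits, Fzr1 and Ube2s among them. Of its 13 tested genes 1 was higher and 8 lower (61.5%, against 69.3% of all genes), with a median of -1.83 against -2.12. Without the few-marker cells these counts were again 1 and 8, and with globin genes removed 2 and 7. The subunit genes Anapc13 (-5.15), Cdc26 (-4.97), Anapc5 (-4.85) and Anapc11 (-3.54) had the largest differences. The other subunit genes tested ran from -2.82 (Cdc16) to -0.42 (Cdc27), and no median was taken over the subunits alone. Anapc13, for example, had medians of 116, 55.0 and 0 RPKM and was detected in 18, 15 and 5 of 19 cells from low to high. Fzr1, which encodes CDH1, the activator that replaces CDC20 late in mitosis and in G1, was the 1 higher gene at 2.42. It had medians of 0, 25.6 and 35.1 RPKM and detection in 8, 12 and 16 cells, and was at 1.91 and still higher without the few-marker cells. Between the high and the low bin the activators Fzr1 (2.42) and Cdc20 (-1.64) had opposite signs, but both lay above the median of all genes tested (-2.12). Over all genes above 0 in any kept cell the median was -0.57, and Cdc20 lay below it. Cdc20 had no common direction over description codes and was at -0.10 among cells with at least 2000 genes. Fzr1 was named after its values were seen. Ube2s, which extends the chains that UBE2C starts, differed by 0.17.

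Among genes linked to the spindle checkpoint, 2 of 7 were lower (28.6%, against 69.3% of all genes) and 0 higher, with a median of -0.52 against -2.12. These were 3 lower and 0 higher without the few-marker cells, and 2 lower and 1 higher with globin genes removed. Mad2l1 was at -3.56 (-3.42 without the few-marker cells), with medians of 170, 57.8 and 18.1 RPKM from low to high, and Bub3 at -2.88 (-2.65). Bub1 (-0.82) and Mad2l1bp (0.43) did not pass the size rule as deposited. Bub1 was counted as lower without the few-marker cells (-1.06), and Mad2l1bp as higher with globin genes removed (1.19). Other kinases and kinase partners on the list had 0 higher and 0 lower of 6 (0% lower, against 69.3% of all genes), with a median of -0.47. Cdca8, the borealin subunit that binds survivin, was at 0.55, Tpx2, the activator of Aurora A, at 0.15 and Pbk at -2.39. Without the few-marker cells 2 of these 6 were lower, Pbk at -3.65 among them. Removing globin genes instead put 2 of the 6 higher, Cdca8 at 1.90 and Tpx2 at 1.20, and 0 lower. Of 11 cyclins, Cdk regulators and factors 1 was lower (9.09%, against 69.3% of all genes) and 0 higher. The lower gene was Gmnn (-3.18), which restrains replication licensing. Cdkn3, a phosphatase of CDKs, was at 1.91 without a common direction over description codes, and at 1.39 with one when the few-marker cells were left out. Cks1b (-0.86) and Ccnf (-0.46) passed no size rule. Of these 11 genes 1 was higher and 3 were lower without the few-marker cells. Removing globin genes gave 1 higher, Cdkn3 at 3.28, and 1 lower.

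Spindle, centromere and cytokinesis genes had 2 higher and 6 lower of 35 (17.1%, against 69.3% of all genes), with a median of -0.25. The balance depended on the setting, with 6 higher and 3 lower (median 0.45) once globin genes were removed and 0 higher and 10 lower (median -0.52) without the few-marker cells. Stmn1, which destabilizes microtubules, had medians of 1074, 501 and 71.4 RPKM from low to high and differed by -5.46 (-5.13 without the few-marker cells), and Cenpk (-3.05) and Tubb5 (-2.24) were lower too, while Nuf2 (-2.14) had no common direction. The higher genes were Cenpf (1.15) and Cenpe (1.11), kinetochore proteins named here after their values were seen, and both were under 1 without the few-marker cells (0.77 and 0.41). Among 15 chromosome genes 4 were lower (26.7%), the high-mobility-group genes Hmgb3 (-5.43) and Hmgb1 (-2.70), the histone variant gene H2afz (-3.52) and the condensin gene Ncapg2 (-2.64). Mki67, a marker of cycling cells also named after its values were seen, was the 1 higher gene at 1.23, with detection in 16, 18 and 19 of 19 cells, and was at 0.56 without the few-marker cells. The median of this group was -0.71. With globin genes removed 4 were higher and 4 lower (median 0.44), and without the few-marker cells 0 were higher and 6 lower (median -0.84).

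Genes most like the 10 in pattern were sought over 3882 genes detected in at least 20% of the 57 cells. By Spearman correlation with the mean log2 level of the 10 genes, the closest were Prc1 (0.71), Tuba1c (0.69), Nusap1 (0.67), Cenpa (0.63), Tuba1a (0.60), Gm6682 (0.60), Tuba1b (0.56), Nup35 (0.56), Spc25 (0.56) and Nuf2 (0.56), against a median of 0.06 over all genes compared. Of these 10, 7 were on the G2 and M list, and the alpha-tubulin genes are near-identical copies that may share reads. Without the few-marker cells the correlations of the same genes ran from 0.50 to 0.69. For Ube2c alone the closest were the beta-globin genes Hbb-b1 (0.62), Hbb-bs (0.62), Hbb-b2 (0.62) and Hbb-bt (0.62), which are near-identical pairs, followed by Nusap1 (0.61), against a median of -0.26. Nusap1, a spindle protein gene, had medians of 28.6, 83.2 and 63.1 RPKM from the low to the high bin.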

How the data were processed

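The deposited values are RPKM per RefSeq transcript (34899 transcripts), made by the authors. TopHat2 (2.0.9) and the mm9 build were used, per the submitters' processing notes, and the rest of the authors' steps is not given in the sources used here. Cells were isolated on a Fluidigm C1, per the labels' protocols, and cDNA was made by SMART-Seq and libraries by Nextera XT. A gene took its highest transcript in each cell, and log2(RPKM + 1) was analysed, a scale on which differences of low genes are understated. RPKM does not give depth, which was estimated from the steps between low values with transcript lengths of another annotation, so a unit may be a read or a pair. Cells in which any of 8 non-erythroid lists had 3 or more markers, and 50% or more of those measured, at 10 RPKM were set aside. Doublets were not called, for want of cells. Differences were repeated within each code of the sample descriptions that had at least 3 cells in both bins. Cells are not replicates and no animal is named, so no test, p-value or standard error is given. Intervals, and floors at 3 reads, reflect counting error alone, as amplified reads are not independent molecules.

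Genes named from lists were, per list, the 4 that differed most among genes listed by 50% or more of high-bin or low-bin cells, together with the 10 and 5 genes closest in pattern. The 10 genes, lists and settings were chosen with earlier results of these data known. Promoters are RefSeq's, of GRCm38.p6, and no coordinates were converted. Python 3.11.15, pandas 2.3.3, NumPy 2.4.6, SciPy 1.17.1 and matplotlib 3.10.9 were used. Alternatives changed the bins, the ordering gene, scaling, pseudocount, detection minimum, cell filters, transcript rule and description codes.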

Additional observations from a re-analysis of the deposited data

Results flagged for a closer look

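Mitotic transcripts were also present in cells outside the comparisons. Of the 12 cells set aside for markers of other lineages, 4 listed at least 8 of the 10 genes (33.3%, exact interval 9.92% to 65.1%), and the lowest, median and highest Ube2c values in the 12 were 0, 0.246 and 1293 RPKM. Aurkb was listed in 9 of these 12 cells and Birc5 in 10, with medians of 83.6 and 122 RPKM. Among the 27 cells under the gene minimum, Ube2c was detected in 13 (48.1%, 28.7% to 68.1%), with a highest value of 13849 RPKM, and at least 8 of the 10 genes were listed in 2 cells. All of these were noted because the signal lies in cells that the comparisons do not use.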

How the results depend on the processing

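Ube2c was higher in the high than in the low Hba-a1 range in each of 16 alternatives, at 2.04 to 6.05 on the log2 scale against 3.31. Of these alternatives 2 could not change Ube2c and gave the same 3.31, as stated below. The value of Ube2c moved by more than the SD over description codes with globin genes removed (4.73), all genes rescaled to 1 total (2.04), no gene minimum (5.22), no cell set aside (6.05), code SCP-1706013 left out (4.01) and the few-marker cells left out (2.45). The median over the 10 genes, -0.08, was 1.58 with no cell set aside and 1.55 with no gene minimum, and was above 0 in 6 of 16 alternatives and below 0 in 10. That of the G2 and M list, -0.48, was 0.28 with globin genes removed, -1.10 with all genes rescaled, 0.14 with at least 2000 genes per cell, 0.18 with no cell set aside and 0.51 with no gene minimum. That of the S phase list, -4.48, stayed below 0 in all 17 alternatives, and was -3.38 with the cells cut into 2 bins, -6.26 with a pseudocount of 0.1, -2.51 with one of 10, -1.14 with at least 2000 genes per cell (where all genes were at -1.54), -2.36 with no cell set aside and -1.65 with no gene minimum. Cells with at least 8 of the 10 genes were 42.2% with no gene minimum, against 57.9%. Aurkb, at -1.59, turned to 0.23 with no gene minimum, and the cause was not tested. Cdc20 and Plk1 were below 0 in 15 and 14 of 16 alternatives, Cdc20 being at 0.35 and Plk1 at 0.13 with no gene minimum, and Cdc20 at -0.10 and Plk1 at 0.87 where at least 2000 genes were asked for and 27 cells were left. Ccnb1 and Ccnb2 changed sign, at 0.93 and 0.61 with globin genes removed. Rescaling all genes to 1 total put the median of all genes at -2.40, against -2.12. Taking all genes above 0 in any kept cell put it at -0.57, with the G2 and M list at -0.48 and the S phase list at -4.06. Leaving out cells with few late and few erythroblast markers left out 0 cells, so that alternative could not change any value. Summing over transcripts could not change Ube2c, Cdc20 or Plk1, each with 1 measured transcript. The counts of 16 alternatives for these genes include both. The few-marker cells, the ratio within a cell, the calls by size alone and the 2 changes together were chosen after seeing the data. No paired analysis was possible because all cells carry 1 group label. A transcript present in a cell listed at 0 may have been missed, and how far depth set the zeros of Plk1, Cdc20 and Aurkb was not tested.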
